A study of Bos taurus with 8 samples.

Results

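The genes described here are 50 named genes of the cell division cycle in Bos taurus, and all 50 were found by symbol among the 18871 named genes of the deposited count table. They were assigned to 5 classes by role, with 16 genes of DNA replication, 10 regulators of the G1 to S transition, 17 genes of G2 and mitosis, 5 cyclin-dependent kinase (CDK) inhibitors and 2 pocket proteins. Their roles, and not their measured values, defined the choice, which was made with earlier results of these data known. All 50 had a total of at least 20 counts and were among the 18339 genes tested. Bulk poly(A) RNA-seq was available for 8 preadipocyte lines, each grown from a single cell of the stromal vascular fraction (SVF), the cells left when mature adipocytes are removed from fat. Of these, 4 came from intramuscular fat (IMF1 to IMF4) and 4 from subcutaneous fat (SF1 to SF4) of adult male Angus cross steers, and no gene was altered and no compound compared. Each line is 1 clone. The paper describes each clone as taken from an SVF sample of its depot, and the paper and the labels give different numbers of steers. Which IMF and SF clones share a steer is not stated in the sources used here, so that some may, and the p-values, from tests without pairing, measure the spread between clones. That spread may include differences between steers. How fast a clone divided was among the criteria by which the authors selected it, next to its shape and its capacity to form adipocytes. The paper places RNA collection in subconfluent culture in growth medium, whereas the series description places adipogenic induction ahead of sequencing, and this difference was not resolved here.

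Cells enter the cycle when mitogens raise D-type cyclins, which activate CDK4 and CDK6 to phosphorylate the retinoblastoma family of pocket proteins (RB1, RBL1). Phosphorylation releases E2F factors, which switch on cyclin E, CDK2 and the replication genes, whereas CDK inhibitors of the CIP/KIP family (CDKN1A, CDKN1B) and the INK4 family (CDKN2A, CDKN2B, CDKN2C) restrain these kinases. Origins are licensed in G1 by CDC6 and CDT1, which load the MCM helicase, and a later wave of genes, among them cyclin B, CDK1, PLK1 and the Aurora kinases, carries the cell through G2 and mitosis. In bulk RNA, a larger share of cells in a phase and more RNA per cell in that phase cannot be told apart.

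Most of the differences lay in one direction, with higher RNA in the IMF clones. Of the 50 genes, 26 (52.0%) were higher and 2 (4.0%) were lower in IMF at an adjusted p under 0.05 in edgeR's quasi-likelihood test, against 14.4% and 11.4% of all genes tested. Among the 12244 genes with a mean level at least that of the lowest of the 50, 18.0% were higher and 14.7% lower. The 2 lower genes were *CCND1*, a D-type cyclin, and *RB1*, the retinoblastoma protein. With a change of at least 1 log2 unit as well, 6 were higher (*CDC6*, *CDT1*, *MCM3*, *MCM5*, *CCND2* and *CCND3*) and the same 2 were lower, against 4.78% and 4.04% of all genes. The median log2 fold change of the 50 was 0.42, beside -0.032 over all genes tested, and 44 of the 50 had a positive value. The plot of fold changes by class shows this direction for every replication and every G2/M gene. All 4 IMF clones lay above all 4 SF clones in 28 of the 50 genes and below them in 2, against 18.0% and 14.1% of all genes. With 1 clone left out, the number higher at the adjusted p ranged from 19 (without IMF2 or without IMF3) to 33 (without SF3), and 2 were lower in each fit. Past both thresholds, 3 were higher and 1 was lower without SF4, the fewest in these fits.

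**Figure D1:**
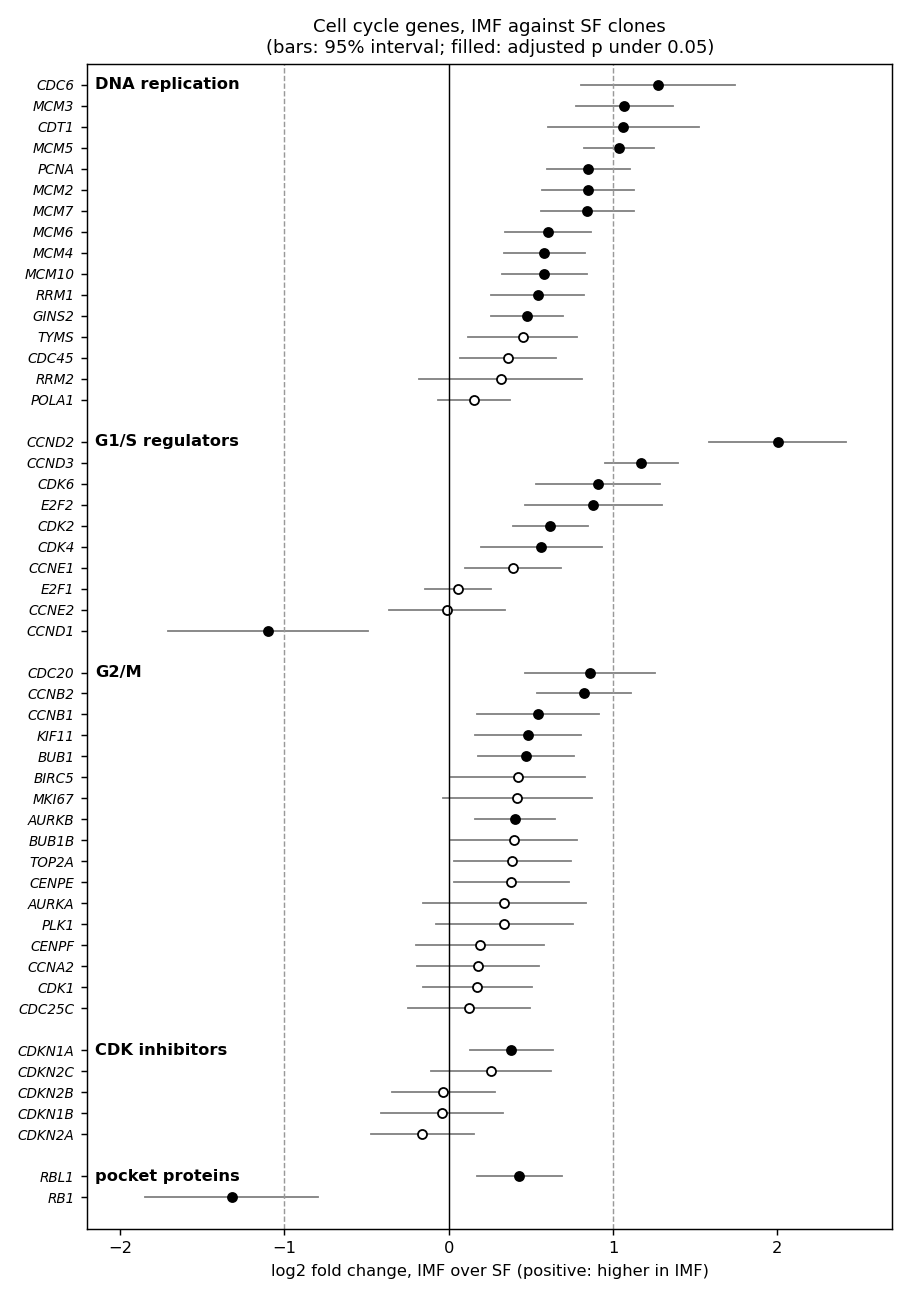
Log2 fold change of each of the 50 genes between the 4 IMF and the 4 SF clones (points, filled at an adjusted p under 0.05), with 95% intervals as bars, genes grouped by class, and dashed lines at 1 and -1. Points lie right of 0 for all 16 replication and all 17 G2/M genes, *CCND2* lies farthest right at 2.00, and *CCND1* and *RB1* are the 2 filled points on the left.

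Total counts were 19654917 to 29308882 per clone, and 3 counts corresponded to 0.0981 to 0.165 CPM, the count scaled to the TMM-normalized library size, a floor that covers counting error only. All 50 genes exceeded 3 counts in every clone. Markers of muscle and endothelium moved with the groups. All 11 skeletal muscle markers were higher in IMF, against 14.4% of all genes. Their summed level was 890.2 to 1035 CPM in IMF against 2.55 to 25.7 in SF, and *MYOD1*, *MYOG* and *CKM* had 0 counts in every SF clone. The number higher was 10 with the replicate block, without any 1 of the IMF clones and without SF3. Of 8 endothelial markers, 7 were higher in IMF (131 to 147 against 19.1 to 44.4 CPM summed), against 14.4% of all genes, and *KDR* and *EMCN* had 0 counts in every SF clone. The remaining marker, *FLT1*, had a mean of 14.3 CPM in IMF and 24.4 in SF (log2 fold change -0.77, adjusted p = 0.108, edgeR). It made up most of the SF sum. Of 5 leukocyte markers, *CD14* was higher and *CD3E* lower in IMF (17.4 to 39.2 against 47.1 to 80.5 CPM summed), beside 14.4% and 11.4% of all genes. The number lower was 0 without IMF3, SF1, SF2 or SF4 and 2 with DESeq2, limma-voom or the replicate block. *PTPRC*, at a mean of 9.68 against 33.3 CPM, made up most of the difference in the leukocyte sum but did not pass (log2 fold change -1.79, adjusted p = 0.0518, edgeR). Of 8 preadipocyte markers, *PDGFRA* was higher and *COL1A1* and *PPARG* were lower in IMF (21423 to 22411 against 35456 to 39877 CPM summed), again beside those shares. The number higher was 0 without IMF1, IMF2 or IMF3 and 2 without SF2, and the number lower was 3 without SF3. *COL1A1*, at a mean of 12372 against 30089.7 CPM, made up the difference in that sum. The median log2 fold change of the 8 was 0.027 with 4 positive, and their mean log2 CPM overlapped between the groups (6.37 to 6.97 against 6.74 to 6.98). Of 3 adipocyte markers, *FABP4* was higher in IMF (14.2 to 17.3 against 5.11 to 9.29 CPM summed), beside 14.4% of all genes. *FABP4*, at a mean of 9.64 against 0.178 CPM, made up the difference in that sum. *CEBPA* (log2 fold change 0.014) and *PLIN1* (log2 fold change -0.35, adjusted p = 0.119, edgeR) did not pass, and *PLIN1* was lower in every IMF clone than in any SF clone. These differences stand beside every comparison of the 50 genes, and their part in them was not tested.

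Genes of DNA replication were higher in IMF in 12 of 16 cases (75.0%), against 14.4% of all genes, with a median log2 fold change of 0.59 and a range from 0.15 to 1.27. None of the 16 was lower in edgeR's quasi-likelihood test, DESeq2 or limma-voom, and at an unadjusted p under 0.05 14 were higher and 0 lower. DESeq2 called 14 higher and limma-voom 13. *CDC6*, the ATPase that recruits the helicase to origins (chromosome 19, 40535051 to 40546070, ARS-UCD2.0), had 5.28, 6.74, 6.39 and 6.76 CPM in IMF1 to IMF4 and 2.46, 3.30, 2.800 and 1.82 in SF1 to SF4. Every IMF clone had more than any SF clone and SF4 was the lowest of the 8, a 2.42-fold difference (log2 fold change 1.27 ± 0.20 SE, adjusted p = 0.00266). *CDT1*, its partner in loading (chromosome 18, 14008549 to 14012905), had 13.6, 15.0, 13.9 and 14.7 CPM in IMF1 to IMF4 and 6.52, 7.66, 8.89 and 4.24 in SF1 to SF4. The IMF clones were close together, SF3 was the highest and SF4 the lowest SF clone, and the groups did not overlap (log2 fold change 1.06 ± 0.20 SE, adjusted p = 0.00597). Without SF4 the log2 fold change of *CDT1* was 0.89, under the fold threshold.

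The 6 subunits of the MCM2-7 helicase, which unwinds the template, were all higher in IMF, by 1.497-fold for *MCM4* to 2.10-fold for *MCM3*. *MCM3* (chromosome 23, 24694546 to 24711930) had 64.6, 69.7, 68.3 and 66.6 CPM in IMF1 to IMF4 and 33.1, 33.5, 37.8 and 24.0 in SF1 to SF4 (log2 fold change 1.07 ± 0.13 SE, adjusted p = 0.000675). *MCM5* (chromosome 5, 73633362 to 73651849) had 78.9, 80.6, 81.9 and 76.0 CPM in IMF1 to IMF4 and 42.6, 35.3, 42.7 and 34.00 in SF1 to SF4 (log2 fold change 1.04 ± 0.093 SE, adjusted p = 0.000153). In both, SF3 was the highest and SF4 the lowest SF clone, and each SF clone was below every IMF clone. *MCM2* had 115, 115, 115 and 112 CPM in IMF1 to IMF4 and 68.4, 64.4, 72.6 and 48.2 in SF1 to SF4 (log2 fold change 0.85 ± 0.12 SE, adjusted p = 0.00157). *MCM7* had 129, 138, 136 and 124 CPM in IMF1 to IMF4 and 70.8, 73.8, 90.3 and 59.3 in SF1 to SF4 (log2 fold change 0.84 ± 0.12 SE, adjusted p = 0.00170). SF4 was again the lowest clone in both. *MCM6* had 74.3, 74.4, 70.4 and 68.7 CPM in IMF1 to IMF4 and 38.6, 51.9, 55.2 and 43.5 in SF1 to SF4 (log2 fold change 0.60 ± 0.11 SE, adjusted p = 0.00587), and its lowest clone was SF1. *MCM4* had 82.6, 88.6, 88.0 and 82.6 CPM in IMF1 to IMF4 and 51.5, 60.9, 67.0 and 48.8 in SF1 to SF4 (log2 fold change 0.58 ± 0.11 SE, adjusted p = 0.00507). None of the 6 had overlapping groups. In TPM, a unit that corrects for gene length, the 6 subunits summed to 306, 284, 319 and 264 in IMF1 to IMF4 and 156, 182, 201 and 119.7 in SF1 to SF4, so that the highest SF clone was below the lowest IMF clone. *MCM10*, which helps to activate the loaded helicase, had 31.1, 36.3, 33.0 and 33.5 CPM in IMF1 to IMF4 and 19.6, 20.3, 27.3 and 22.3 in SF1 to SF4 (log2 fold change 0.58 ± 0.11 SE, adjusted p = 0.00679), again without overlap. Without SF4, the log2 fold change was 0.95 for *MCM3* and 0.98 for *MCM5*, so that *CDC6* was then the only replication gene past the fold threshold.

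At the fork, *PCNA*, the sliding clamp of the replicative polymerases, had 49.7, 55.6, 44.8 and 46.0 CPM in IMF1 to IMF4 and 28.6, 28.4, 29.4 and 22.3 in SF1 to SF4. Its IMF clones were all above its SF clones, of which SF4 was the lowest (log2 fold change 0.85 ± 0.11 SE, adjusted p = 0.000943). *GINS2*, a subunit of the active helicase complex, had 11.9, 11.3, 10.8 and 10.3 CPM in IMF1 to IMF4 and 8.06, 7.81, 8.60 and 7.33 in SF1 to SF4 (log2 fold change 0.48 ± 0.10 SE, adjusted p = 0.00743), and *RRM1*, the large subunit of ribonucleotide reductase, which makes deoxyribonucleotides, had 81.3, 87.8, 80.7 and 80.8 CPM in IMF1 to IMF4 and 49.4, 64.1, 66.8 and 46.9 in SF1 to SF4 (log2 fold change 0.54 ± 0.12 SE, adjusted p = 0.0138). The groups did not overlap in either gene. The other 4 genes did not pass the test, with adjusted p-values from 0.0523 to 0.328. *POLA1*, the catalytic subunit of the priming polymerase, had the lowest fold change of the class, with 43.6, 47.3, 46.3 and 44.7 CPM in IMF1 to IMF4 and 43.6, 40.4, 45.6 and 33.8 in SF1 to SF4. Its SF1 and SF3 values lay among the IMF values and SF4 was apart from them (log2 fold change 0.15 ± 0.10 SE, adjusted p = 0.285, 95% interval from -0.066 to 0.37). *TYMS* (log2 fold change 0.45, adjusted p = 0.0523) makes thymidylate, *CDC45* (log2 fold change 0.36, adjusted p = 0.0714) joins the helicase, and *RRM2* (log2 fold change 0.32, adjusted p = 0.328) is the small subunit of ribonucleotide reductase. *TYMS* passed with DESeq2 (adjusted p = 0.0200) and limma-voom (adjusted p = 0.0416), and *CDC45* passed with DESeq2 (adjusted p = 0.0443). Without SF3, 15 of the 16 passed, with *TYMS*, *CDC45* and *RRM2* at adjusted p = 0.0196, 0.0188 and 0.0172. In each of the other 7 fits with 1 clone left out, 12 passed.

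Among the regulators of G1 and S, 6 of 10 were higher and 1 was lower in IMF, against 14.4% and 11.4% of all genes, so that the share lower was near the background, with a median log2 fold change of 0.59. The 3 D-type cyclins split between the groups. *CCND2* (cyclin D2, chromosome 5, 105763348 to 105786522) had 28.0, 26.9, 27.8 and 25.2 CPM in IMF1 to IMF4 and 8.01, 4.71, 8.44 and 5.73 in SF1 to SF4. The lowest IMF clone was above the highest SF clone by a wide margin, 27.0 ± 1.29 against 6.72 ± 1.79 CPM (SD, n = 4), a 4.00-fold difference and the largest fold change of the 50 genes (log2 fold change 2.00 ± 0.18 SE, adjusted p = 0.000159). *CCND3* (cyclin D3, chromosome 23, 15698650 to 15793241) had 42.0, 42.5, 43.1 and 37.5 CPM in IMF1 to IMF4 and 20.7, 18.2, 15.7 and 18.7 in SF1 to SF4, again without overlap and with the smallest adjusted p of the 50 (log2 fold change 1.17 ± 0.10 SE, adjusted p = 9.80e-05). *CCND1* (cyclin D1, chromosome 29, 46889102 to 46898563) went the other way, with 49.1, 50.3, 53.1 and 59.8 CPM in IMF1 to IMF4 and 65.7, 92.9, 122 and 175 in SF1 to SF4. SF1 was just above the IMF clones and SF4 far above them, so that the SF clones spread widely (114 ± 46.9 against 53.1 ± 4.77 CPM, SD, n = 4; log2 fold change -1.10 ± 0.27 SE, adjusted p = 0.0175). Without SF4 its log2 fold change was -0.82 (adjusted p = 0.0239) and under the fold threshold, as it was with total counts alone as the scale (-0.94).

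The make-up of the D-type cyclin RNA therefore differed. Of the summed TPM of the 3 genes, *CCND1* held 52.3, 53.2, 54.0 and 59.8% in IMF1 to IMF4 and 79.2, 87.5, 89.0 and 92.4% in SF1 to SF4. *CCND2* held 20.8 to 24.6% in IMF and 2.49 to 7.95% in SF, and *CCND3* held 19.4 to 23.3% and 5.11 to 12.9%. No share overlapped between the groups. The summed level itself was 139, 125, 148 and 132 TPM in IMF1 to IMF4 and 113, 160.5, 198 and 232 in SF1 to SF4, and there the groups overlapped, with SF1 the lowest and SF4 the highest of the 8 clones.

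The kinases that these cyclins activate were higher in IMF. *CDK6* had 94.995, 97.5, 103 and 97.1 CPM in IMF1 to IMF4 and 70.3, 39.7, 54.3 and 44.9 in SF1 to SF4. All IMF clones were above SF1, the highest SF clone (log2 fold change 0.91 ± 0.16 SE, adjusted p = 0.00471). *CDK4* had 59.3, 65.1, 58.5 and 56.6 CPM in IMF1 to IMF4 and 30.1, 52.5, 43.8 and 35.5 in SF1 to SF4, with SF1 the lowest and SF2 closest to IMF (log2 fold change 0.56 ± 0.16 SE, adjusted p = 0.0327). Its adjusted p was 0.0654, 0.0873, 0.0742, 0.0586, 0.0534 and 0.0826 without IMF1, IMF2, IMF3, IMF4, SF3 and SF4 respectively. *CDK2*, the partner of cyclins E and A, had 16.6, 19.98, 17.6 and 18.4 CPM in IMF1 to IMF4 and 11.9, 11.8, 13.3 and 10.4 in SF1 to SF4, with no overlap (log2 fold change 0.62 ± 0.10 SE, adjusted p = 0.00285). *CDK6* held 15.5 to 17.8% of the summed *CDK4* and *CDK6* TPM in IMF and 8.50 to 22.2% in SF, and these ranges overlapped. The E2F activators differed from each other. *E2F2* had 4.27, 4.91, 4.49 and 5.38 CPM in IMF1 to IMF4 and 2.77, 2.05, 3.12 and 2.37 in SF1 to SF4, with no overlap (log2 fold change 0.88 ± 0.18 SE, adjusted p = 0.00894), whereas *E2F1* had 17.9 to 21.4 CPM in IMF and 17.3 to 20.7 in SF (log2 fold change 0.058 ± 0.087 SE, adjusted p = 0.675, 95% interval from -0.14 to 0.26). Of the E-type cyclins, *CCNE1* had 7.10, 7.78, 6.44 and 8.04 CPM in IMF1 to IMF4 and 5.13, 5.26, 5.76 and 6.23 in SF1 to SF4, where the groups did not overlap but the test was not passed (log2 fold change 0.39 ± 0.13 SE, adjusted p = 0.0532). It passed with DESeq2 (adjusted p = 0.0190) and limma-voom (adjusted p = 0.0460). *CCNE2* had 8.02 to 11.3 CPM in IMF and 7.77 to 11.2 in SF, with a 95% interval of its log2 fold change from -0.36 to 0.34 (adjusted p = 0.972).

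**Figure D2:**
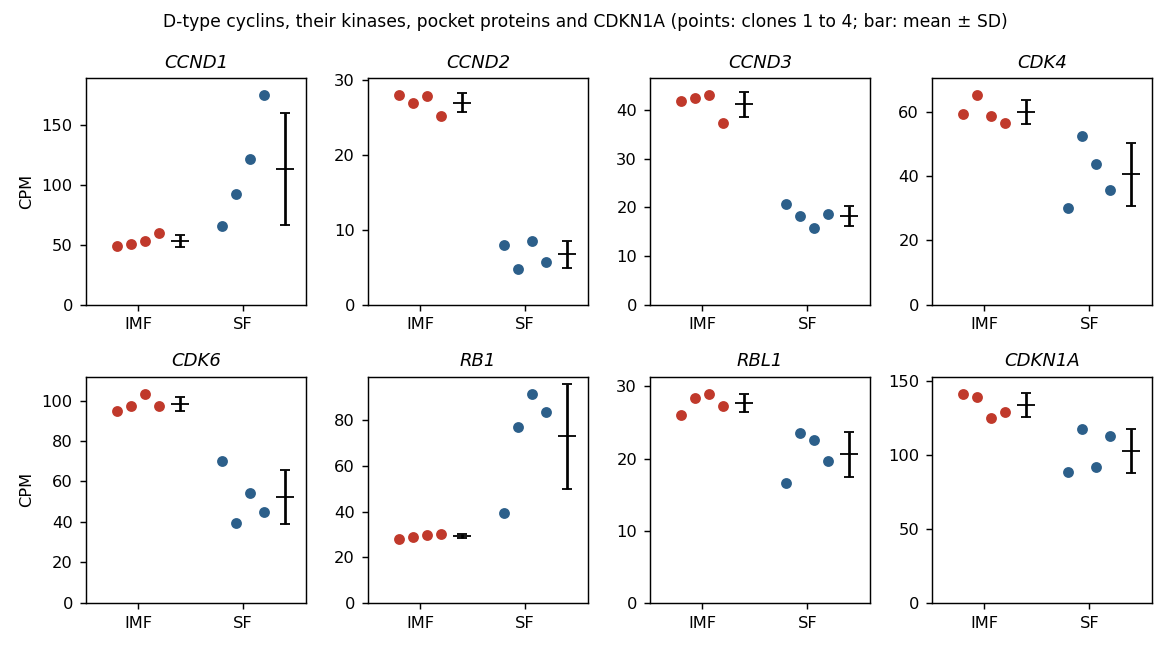
Level in CPM (y axis, from 0, scale set per gene) of the D-type cyclins, *CDK4*, *CDK6*, *RB1*, *RBL1* and *CDKN1A* in the 4 IMF and 4 SF clones (points, clones 1 to 4 from left to right) with mean ± SD as a bar. *CCND1* and *RB1* are the 2 panels in which the SF clones lie above the IMF clones, *RB1* from 39.4 to 91.6 CPM against 27.9 to 30.2.

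The 2 pocket proteins, which hold E2F factors in check, moved in opposite directions. *RB1* (chromosome 12, 18118566 to 18238934) had 27.9, 29.0, 29.6 and 30.2 CPM in IMF1 to IMF4 and 39.4, 76.9, 91.6 and 83.5 in SF1 to SF4. The IMF clones were nearly equal, SF1 was the SF clone closest to them, and the groups did not overlap, with a level 2.50-fold lower in IMF (log2 fold change -1.32 ± 0.23 SE, adjusted p = 0.00399). Without SF1 its log2 fold change was -1.53 (adjusted p = 1.73e-05). *RBL1*, which encodes p107, had 26.1, 28.4, 29.0 and 27.3 CPM in IMF1 to IMF4 and 16.6, 23.6, 22.5 and 19.6 in SF1 to SF4, higher in every IMF clone than in any SF clone (log2 fold change 0.43 ± 0.11 SE, adjusted p = 0.0249). Its adjusted p was 0.0653, 0.0771, 0.0545 and 0.0623 without IMF2, IMF3, IMF4 and SF4 respectively. The ratio of *RB1* to *RBL1* in TPM was 1.07, 1.02, 1.02 and 1.101 in IMF1 to IMF4 and 2.37, 3.25, 4.05 and 4.24 in SF1 to SF4, so that RNA of the pair was nearly balanced in each IMF clone and weighted to *RB1* in each SF clone.

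Of the 5 CDK inhibitors, 1 (*CDKN1A*) was higher and 0 were lower in IMF in edgeR's quasi-likelihood test (at an unadjusted p under 0.05, 1 higher and 0 lower, with DESeq2 1 and 0, with limma-voom 1 and 0), beside 14.4% and 11.4% of all genes, and the median log2 fold change was -0.033. *CDKN1A*, which encodes p21, had 141, 139, 125 and 129 CPM in IMF1 to IMF4 and 88.7, 118, 91.6 and 113 in SF1 to SF4. The IMF clones were above all SF clones (log2 fold change 0.38 ± 0.11 SE, adjusted p = 0.0358), and its adjusted p was 0.0888, 0.0964, 0.0642, 0.0651, 0.0548 and 0.0881 without IMF1, IMF2, IMF3, IMF4, SF1 and SF3 respectively. *CDKN1A* held 43.7 to 48.0% of the summed TPM of the 5 inhibitors in IMF and 37.2 to 39.8% in SF. The others did not pass, and their groups overlapped. *CDKN1B* (p27) had 18.6, 15.6, 16.4 and 16.5 CPM in IMF1 to IMF4 and 17.9, 17.5, 21.4 and 12.1 in SF1 to SF4 (log2 fold change -0.040 ± 0.16 SE, adjusted p = 0.888). *CDKN2C* (p18) had 25.9, 28.6, 28.2 and 26.3 CPM in IMF1 to IMF4 and 21.2, 28.2, 25.5 and 16.1 in SF1 to SF4 (log2 fold change 0.26 ± 0.16 SE, adjusted p = 0.280). SF4 was the lowest clone in both. *CDKN2A*, whose gene-level count covers every transcript of the locus, had 29.0, 32.0, 30.8 and 27.4 CPM in IMF1 to IMF4 and 26.4, 36.5, 29.6 and 40.8 in SF1 to SF4 (log2 fold change -0.16 ± 0.14 SE, adjusted p = 0.437). *CDKN2B* (p15) had 28.1, 30.0, 30.9 and 28.6 CPM in IMF1 to IMF4 and 24.7, 32.4, 25.5 and 37.8 in SF1 to SF4 (log2 fold change -0.033 ± 0.14 SE, adjusted p = 0.893). These 2 genes lie 9117 bases apart on chromosome 8 of ARS-UCD2.0, and in both SF4 was the highest and SF1 the lowest clone. The 95% intervals ran from -0.41 to 0.33 for *CDKN1B*, from -0.11 to 0.62 for *CDKN2C*, from -0.47 to 0.15 for *CDKN2A* and from -0.35 to 0.28 for *CDKN2B*. With total counts alone as the scale, the sign of *CDKN1B* and *CDKN2B* turned (0.094 and 0.12), in a setting that moved the median of all genes from -0.032 to 0.12.

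Genes of G2 and mitosis were higher in IMF in 6 of 17 cases, against 14.4% of all genes, with a median log2 fold change of 0.40. None of the 17 was lower in edgeR's quasi-likelihood test, and at an unadjusted p under 0.05 10 were higher and 0 lower. DESeq2 and limma-voom each called 6 higher and 0 lower. The number higher was 2 without IMF2 or IMF3 and 12 without SF3. *CDC20*, the activator of the anaphase-promoting complex, had the highest fold change of the class, with 92.7, 89.3, 87.5 and 83.6 CPM in IMF1 to IMF4 and 38.1, 53.2, 65.1 and 38.1 in SF1 to SF4, no overlap and SF3 the highest SF clone (log2 fold change 0.86 ± 0.17 SE, adjusted p = 0.00768). *CCNB2*, a mitotic cyclin, had 27.0, 29.3, 26.5 and 23.2 CPM in IMF1 to IMF4 and 13.0, 14.4, 18.5 and 13.9 in SF1 to SF4 (log2 fold change 0.82 ± 0.13 SE, adjusted p = 0.00203). *CCNB1*, the main mitotic cyclin, had 71.7, 78.0, 75.0 and 66.7 CPM in IMF1 to IMF4 and 38.9, 53.1, 66.2 and 41.7 in SF1 to SF4. In both cyclins SF3 came closest to the IMF clones, and in *CCNB1* it lay just under IMF4 (log2 fold change 0.54 ± 0.16 SE, adjusted p = 0.0406). *KIF11*, the kinesin that separates spindle poles, had 55.7, 66.7, 67.2 and 62.1 CPM in IMF1 to IMF4 and 37.0, 50.8, 54.3 and 38.1 in SF1 to SF4 (log2 fold change 0.48 ± 0.14 SE, adjusted p = 0.0358). *BUB1*, a kinase of the spindle checkpoint, had 37.1, 38.8, 40.6 and 35.4 CPM in IMF1 to IMF4 and 24.9, 31.2, 31.7 and 21.8 in SF1 to SF4 (log2 fold change 0.47 ± 0.13 SE, adjusted p = 0.0267). *AURKB*, the Aurora kinase of the chromosomal passenger complex, had 24.1, 25.7, 23.8 and 21.9 CPM in IMF1 to IMF4 and 17.9, 17.1, 21.5 and 15.8 in SF1 to SF4 (log2 fold change 0.40 ± 0.11 SE, adjusted p = 0.0247). All 6 had groups that did not overlap.

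The remaining 11 G2/M genes did not pass, with log2 fold changes from 0.12 to 0.42 and adjusted p-values from 0.106 to 0.634. *MKI67*, the proliferation marker Ki-67, had 302, 328, 353 and 331 CPM in IMF1 to IMF4 and 203, 262, 343 and 175 in SF1 to SF4. SF3 lay among the IMF clones, and SF1 and SF4 were the lowest (log2 fold change 0.42 ± 0.20 SE, adjusted p = 0.160). *TOP2A*, the topoisomerase that disentangles sister chromatids, had 142, 154, 144 and 143 CPM in IMF1 to IMF4 and 91.4, 121, 145 and 89.4 in SF1 to SF4. SF3 again lay among the IMF clones (log2 fold change 0.39 ± 0.16 SE, adjusted p = 0.106). *CDC25C*, the phosphatase that activates CDK1, had the lowest fold change of the class, with 8.44, 8.80, 7.12 and 8.00 CPM in IMF1 to IMF4 and 6.21, 7.31, 9.70 and 6.50 in SF1 to SF4 and SF3 the highest of all 8 clones (log2 fold change 0.12 ± 0.16 SE, adjusted p = 0.634, 95% interval from -0.25 to 0.49). Some of the calls were lost with 1 clone left out, in fits with fewer degrees of freedom. The highest adjusted p with 1 clone left out was 0.103 for *CCNB1* (without IMF2), 0.104 for *KIF11* (without IMF3), 0.0874 for *BUB1* (without IMF3) and 0.0819 for *AURKB* (without IMF2). The log2 fold changes in those fits were 0.49, 0.42, 0.41 and 0.34 respectively. Without SF3, 12 of the 17 were higher, among them *MKI67* (adjusted p = 0.0243) and *TOP2A* (adjusted p = 0.0189), whereas 3, 2, 2 and 4 were higher without IMF1, IMF2, IMF3 and IMF4, and 3, 4 and 3 without SF1, SF2 and SF4. *CDC20* and *CCNB2* passed in all 8 of these fits, with adjusted p-values of at most 0.0254 and 0.00830.

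Set beside each other in each clone, the replication and G2/M classes placed the clones differently. The mean log2 CPM of the 16 replication genes was 5.46, 5.58, 5.53 and 5.47 in IMF1 to IMF4 and 4.75, 4.88, 5.07 and 4.53 in SF1 to SF4, and every SF clone was below every IMF clone. That of the 17 G2/M genes was 5.67, 5.78, 5.71 and 5.66 in IMF and 5.03, 5.37, 5.68 and 5.00 in SF, where SF3 lay within the IMF range. In SF3, 13 of the 16 replication genes were below the IMF range, 2 within it and 1 above it. Of its 17 G2/M genes, 6 were below, 6 within and 5 above. SF2, by contrast, had 16 of 16 replication genes and 15 of 17 G2/M genes below the IMF range, and SF1 and SF4 had all 17 G2/M genes below it. The difference between the classes, replication minus G2/M in mean log2 CPM, was -0.21, -0.20, -0.19 and -0.18 in IMF1 to IMF4 and -0.28, -0.49, -0.62 and -0.47 in SF1 to SF4. The SF values were all below the IMF values, SF3 the lowest and SF1 the closest to IMF. This difference is a description of the 2 classes and was not tested.

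**Figure D3:**
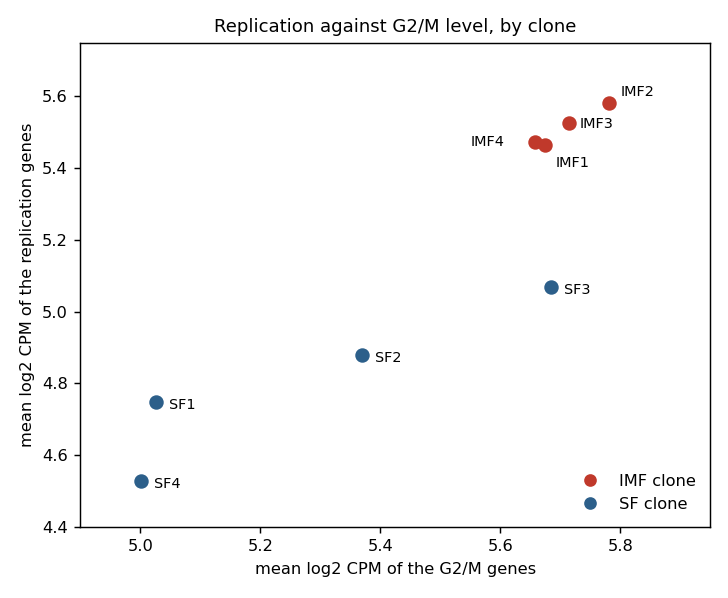
Mean log2 CPM of the 16 replication genes (y axis) against that of the 17 G2/M genes (x axis), 1 point per clone, IMF clones in red and SF clones in blue. SF3 reaches the IMF clones on the x axis (5.68 against 5.66 to 5.78) but not on the y axis (5.07 against 5.46 to 5.58).

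The SF clones also differed more from each other than the IMF clones did. The coefficient of variation was larger in SF than in IMF in 49 of the 50 genes (98.0%), against 64.6% of all genes tested and 74.1% of the 12244 genes at least as high as the lowest of the 50. Its median over the 50 was 5.96% in IMF and 20.1% in SF, beside 10.45% and 20.9% over all genes and 7.01% and 14.3% over those 12244. Beside the latter, the median of the 50 genes was lower by little in IMF and higher in SF. In SF the G2/M class was the most variable of the 3 larger classes, at a median of 23.9% against 16.8% for replication and 17.00% for the G1/S regulators. The order of the SF clones was shared by many genes. SF3 was the highest SF clone in 17 of 17 G2/M and 15 of 16 replication genes, and SF4 was the lowest in 13 of 16 replication and 9 of 17 G2/M genes, SF1 being the lowest in the other 8. Among the IMF clones, IMF2 was the highest in 11 of 16 replication and 9 of 17 G2/M genes.

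**Figure D4:**
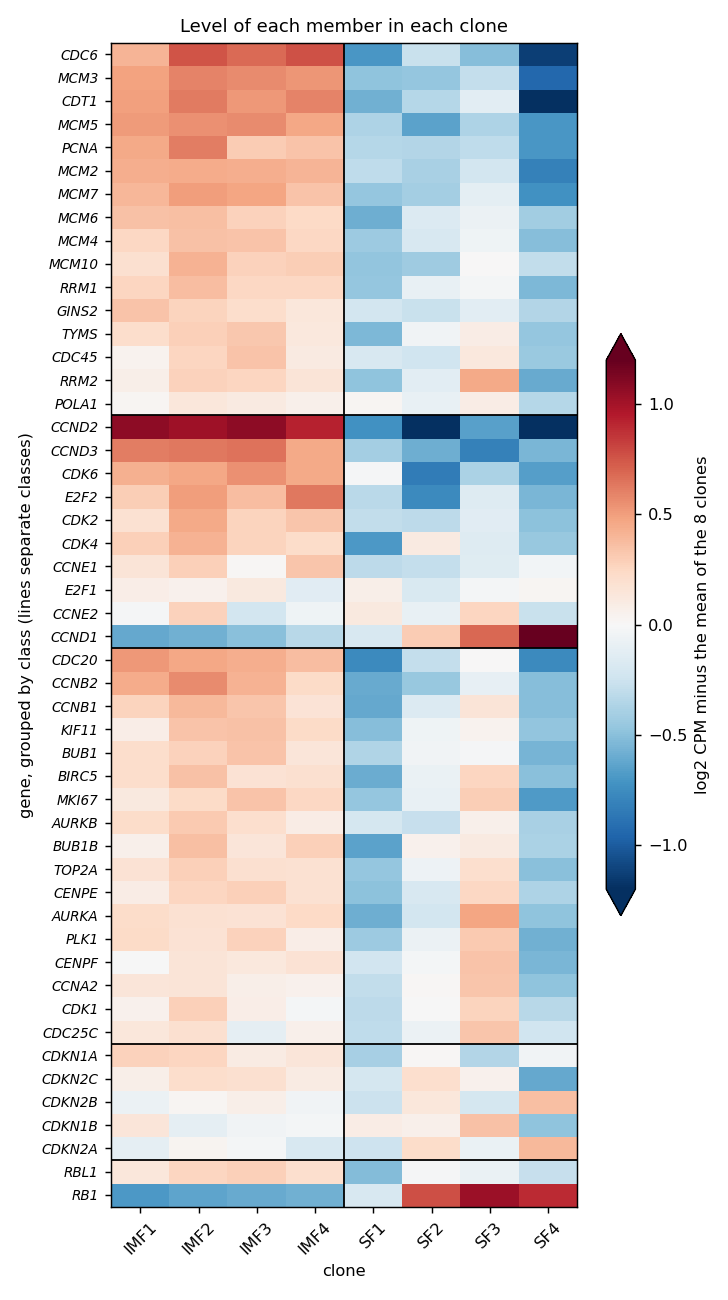
Log2 CPM of each of the 50 genes (rows, by class) in each clone (columns), minus the gene's mean over the 8 clones, with red above and blue below the mean. The 4 IMF columns are alike, SF3 turns red in most G2/M rows, and *CCND1* and *RB1* are the rows that are blue in every IMF column and red in SF2, SF3 and SF4.

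Wider lists of the same pathways, none of them overlapping the 50 genes, were counted in the same fit. Of 45 other replication genes, 26 were higher and 0 were lower in IMF, against 14.4% and 11.4% of all genes (31 and 0 at an unadjusted p under 0.05, 29 and 0 with DESeq2, 28 and 0 with limma-voom), with a median log2 fold change of 0.39. The lowest adjusted p-values were those of *POLD3*, a subunit of polymerase delta (log2 fold change 0.99 ± 0.10 SE, adjusted p = 0.000262), *FEN1*, the flap nuclease of the lagging strand (log2 fold change 0.96 ± 0.10 SE, adjusted p = 0.000290), *WDHD1* (log2 fold change 0.94 ± 0.11 SE, adjusted p = 0.000635) and *PRIM1*, a subunit of primase (log2 fold change 1.04 ± 0.15 SE, adjusted p = 0.00156). Of 55 other mitosis genes, 19 were higher and 0 were lower, against the same shares of all genes (27 and 0 at an unadjusted p under 0.05, 22 and 0 with DESeq2, 21 and 0 with limma-voom), with a median of 0.30. *CDC25A*, a phosphatase that activates CDK2 (log2 fold change 0.78 ± 0.084 SE, adjusted p = 0.000382), *NCAPH*, a condensin subunit (log2 fold change 0.61 ± 0.083 SE, adjusted p = 0.00116), *MYBL2*, a factor that activates mitotic genes (log2 fold change 0.71 ± 0.10 SE, adjusted p = 0.00149), and *SPC24*, of the kinetochore (log2 fold change 0.95 ± 0.15 SE, adjusted p = 0.00230), led that list. With 1 clone left out the number higher in that list was 12 without IMF2, 12 without IMF3 and 13 without SF4, and at most 27, without SF3. The share higher was 57.8% for other replication and 34.5% for other mitosis genes, next to 75.0% and 35.3% for the classes above.

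Of 15 other members of the RB, E2F and DREAM complexes, 3 were higher and 2 were lower, close to the 14.4% and 11.4% of all genes, and 10 did not pass. *E2F8*, an atypical E2F (log2 fold change 0.96, adjusted p = 0.00193), *TFDP1*, the dimer partner of the E2Fs (log2 fold change 0.48, adjusted p = 0.00227), and *E2F4* (log2 fold change 0.29, adjusted p = 0.0120) were higher, while *LIN52* (log2 fold change -0.53, adjusted p = 0.0150) and *E2F5* (log2 fold change -0.52, adjusted p = 0.0413) were lower. With total counts alone as the scale, 4 were higher and 0 lower, and 1 was lower without any 1 of the IMF clones, without SF3 and with the replicate block. Of 14 other CDK control genes, 4 were higher and 1 was lower, beside the same shares of all genes. With total counts alone 6 were higher and 0 lower. The number higher was 2 with no filter, with the replicate block, without IMF4 and without SF3, and 1 without IMF2, IMF3 or SF4, and the number lower was 0 without IMF1 and 2 with DESeq2 or when 10 or more counts were required in 4 clones. *SKP2*, the ubiquitin ligase subunit that marks p27 for degradation, had 48.5, 51.8, 47.6 and 46.0 CPM in IMF1 to IMF4 and 33.7, 9.41, 10.1 and 17.6 in SF1 to SF4, with the groups not overlapping (log2 fold change 1.46 ± 0.38 SE, adjusted p = 0.0231). *MNAT1*, of the CDK-activating kinase (log2 fold change 0.55, adjusted p = 0.00751), *CUL1*, the scaffold of the SKP2 ligase (log2 fold change 0.30, adjusted p = 0.0335), and *FBXW7*, which marks cyclin E (log2 fold change 0.39, adjusted p = 0.0444), were also higher, and *FZR1*, an activator of the anaphase-promoting complex in G1, was lower (log2 fold change -0.36, adjusted p = 0.0173).

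**Figure D5:**
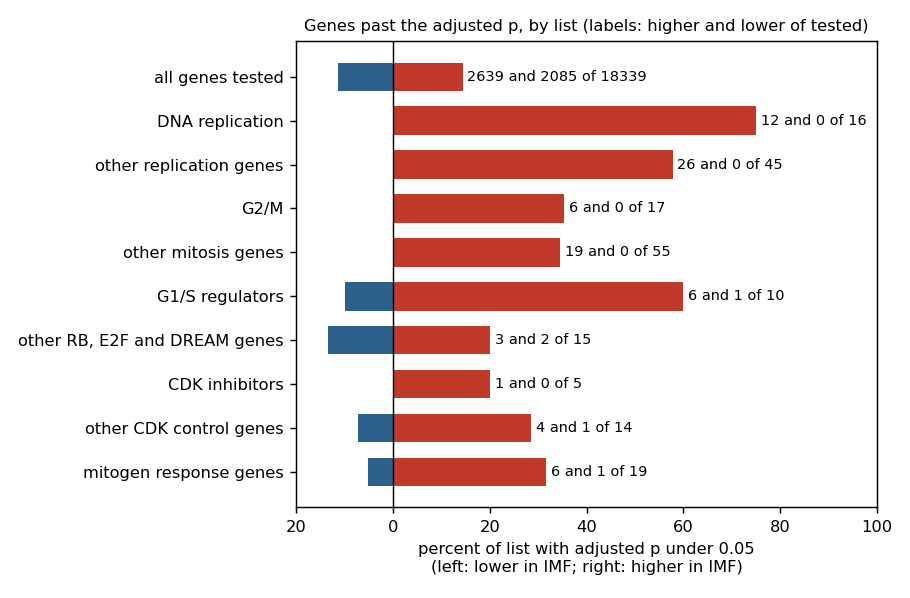
Percent of each gene list with an adjusted p under 0.05, higher in IMF to the right and lower in IMF to the left, with the numbers higher and lower of those tested printed beside each bar and all genes tested at the top. The 2 replication lists reach 75.0% and 57.8% and have no bar on the left.

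Ranked per length among the 50 genes, the highest mean levels in IMF in TPM (± SD, n = 4) were those of *CCNB1* (82.8 ± 8.54), *CDKN1A* (79.5 ± 6.86), *MCM7* (79.0 ± 7.30) and *CDC20* (76.9 ± 7.71), which differed from one another by less than their SDs. In SF they were those of *CCND1* (155 ± 53.3), *CDKN1A* (60.3 ± 10.4), *CCNB1* (56.7 ± 17.7) and *BIRC5* (47.3 ± 16.3), of which *CCND1* had the widest spread. The lowest were *E2F2* (1.24 ± 0.0628), *CDC6* (2.16 ± 0.184) and *CDC25C* (3.86 ± 0.307) in IMF and *E2F2* (0.665 ± 0.138), *CDC6* (0.900 ± 0.287) and *CCNE1* (3.30 ± 0.248) in SF. *CCND2* stood in the middle of the order in IMF (31.3 ± 3.56 TPM) and towards its lower end in SF (7.69 ± 2.20 TPM), and *RB1* went from 8.96 ± 0.578 to 22.2 ± 7.47 TPM.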

How the data were processed

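Poly(A) RNA-seq of 8 bovine preadipocyte clones was analysed. The authors trimmed reads with Trimmomatic, counted them per gene with featureCounts on ARS-UCD2.0 and deposited raw counts for each clone. The aligner is HISAT2 in the paper and STAR in the submitters' processing notes, and the library is non-stranded in the paper and strand-marking in the labels, so reads of overlapping genes may be shared. The deposited columns of group means and of the authors' own test (fold change, p-value, call) were not used.

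The unnamed row (at most 0.0209% of counts) was left out. Genes with at least 20 counts in total were tested by the two-sided quasi-likelihood F-test of edgeR 4.0.16 (R 4.3.3) after TMM scaling, with p-values adjusted by Benjamini-Hochberg across 18339 genes. Passing meant an adjusted p under 0.05, with a change of at least 1 log2 unit as the second rule. Standard errors and 95% intervals came from that fit, class levels from log2 CPM with a prior count of 2, and TPM from the deposited gene lengths. Coordinates are those of RefSeq on ARS-UCD2.0. The scripts were tested on simulated data.

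The genes, classes and lists were chosen with earlier results of these data known. Values per clone were given for every member past the adjusted p, the CDK inhibitors, the D-type cyclins, *MKI67*, *TOP2A*, *PCNA* and the highest and lowest fold change of each class. In other lists at most 4 genes (cell types, 3) with the lowest adjusted p were named, with their fold changes. *TYMS*, *CDC45*, *RRM2*, *E2F1*, *CCNE1*, *CCNE2*, *E2F5*, *FBXW7*, *FOSL2*, *DUSP5*, *MYC*, the clone values of *SKP2* and the named markers of other cell types were added after their values were seen. Alternatives were DESeq2 1.42.0, limma-voom (limma 3.58.1), RLE, upper-quartile and total-count scaling, 2 other filters, a prior count of 2, robust dispersion, a replicate block and leaving out each clone. *CDKN1C*, *MYCN* and promoter motifs were not analysed here, and 1 list is not reported here.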

Additional observations from a re-analysis of the deposited data

Results flagged for a closer look

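Of 110 sets of 4 clones examined for a clone far from the other 3, 4 stood out by Dixon's criterion. That is fewer than the rate of about 1 group in 20 that chance flags. *PCNA* had 22.3 CPM in SF4, the lowest SF value, against 28.4 to 29.4 in the other SF clones. IMF2 was the highest IMF clone in the other 3 cases. *RRM1* had 87.8 CPM there against 80.7 to 81.3 in the other IMF clones, *TOP2A* had 154 against 142 to 144, and *BIRC5*, an inhibitor of apoptosis that acts in the chromosomal passenger complex, had 68.3 against 60.6 to 61.9.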

How the results depend on the processing

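Of the 28 members past the adjusted p, 21 stayed past it with the same sign in all 18 alternatives, and the other 7 (*AURKB*, *BUB1*, *CCNB1*, *CDK4*, *CDKN1A*, *KIF11* and *RBL1*) lost it in some fits that left out 1 clone. The number higher in IMF was 26 to 29 over the alternatives that kept all clones. With total counts alone as the scale, 1189 genes were lower in place of 2085, the share higher among genes past the adjusted p rose from 55.9% to 73.8% and among those past both thresholds from 54.2% to 66.7%, the G1/S median moved to 0.73 and the inhibitor median turned to 0.12, as did the log2 fold changes of *CCNE2* (0.13), *CDKN1B* (0.094) and *CDKN2B* (0.12), all shifted with the median of all genes. With 1 clone left out, genes higher at the adjusted p ranged from 1745 (without IMF2) to 2844, the inhibitor median from -0.056 to 0.10, and members past both thresholds from 4 (without SF4) to 9. Signs turned in some of these fits for *E2F1* (from -0.00071 to 0.11), *CCNE2* (from -0.13 to 0.047), *CDKN2B* (from -0.13 to 0.10) and *CDKN1B* (from -0.18 to 0.051), none of which passed the test in any fit. The cause of these changes was not tested.

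Clones of both depots are numbered 1 to 4, and whether a shared number means a shared steer is not stated. Deviations from the group means correlated at a mean of 0.055 between clones of the same number (4 pairs, from -0.0093 to 0.139) and -0.018 between clones of different numbers (12 pairs, from -0.105 to 0.109). The ranges overlapped, and with 4 same-number pairs this comparison cannot show whether clones share a steer. With the replicate block, 27 members were higher and 2 lower, *TYMS* and *CDC45* passed (adjusted p = 0.0360 and 0.0471, edgeR) and *CDKN1A* did not (adjusted p = 0.0571). Leaving out a clone also leaves 7 clones and fewer degrees of freedom. All 50 genes exceeded 3 counts in every clone, but counting error is largest in those with few counts, such as *CDC6* (33 counts in SF4) and *E2F2* (41 in SF2), and no alternative varied the depth.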

Other observations

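Of 19 genes that respond early to mitogens, 6 were higher and 1 was lower in IMF, beside 14.4% and 11.4% of all genes. *MYC*, the growth regulator, had 72.9, 74.4, 79.5 and 72.2 CPM in IMF1 to IMF4 and 37.3, 15.9, 36.8 and 39.0 in SF1 to SF4, with the groups not overlapping (log2 fold change 1.21 ± 0.25 SE, adjusted p = 0.00874). *JUNB*, a subunit of AP-1 (log2 fold change 0.68, adjusted p = 0.00110), *IER2* (log2 fold change 0.44, adjusted p = 0.00565), *EGR1*, an immediate early factor (log2 fold change 1.34, adjusted p = 0.00550), and *DUSP4*, a phosphatase that acts on MAP kinases (log2 fold change 2.63, adjusted p = 0.00293), were higher, as was *DUSP5* (log2 fold change 1.07, adjusted p = 0.00569). *FOSL2*, another AP-1 subunit, was lower (log2 fold change -0.62, adjusted p = 0.0105). With total counts alone as the scale 7 of the 19 were higher and 0 lower, and without SF2 2 were lower.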
